A study of Mus musculus with 12 samples.

Results

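The genes described here are 9 genes of the MHC class I presentation pathway, B2m, H2-K1, H2-D1, H2-T3, Tap1, Tap2, Tapbp, Nlrc5 and Erap1. The list names them by their role and no measured value enters its rule, though earlier results of these data were known when it was chosen. They are 9 of 23284 genes for which the deposited table gives FPKM (fragments per kilobase of transcript, scaled to the size of the library, a level per length). RNA was sequenced from ILC3s, group 3 innate lymphoid cells, that had been sorted from the small intestine of HR-1 mice, a hairless strain, labelled as 18 weeks old. The layers were IEL, the intraepithelial compartment, and LP, the lamina propria beneath it, and each layer was taken from PA milk mice and ND mice, which made 4 groups of 3 libraries and 12 libraries in all. PA milk mice were born to mothers on the normal diet, nursed by mothers whose chow held added palmitic acid, and moved to the normal diet at weaning. ND mice had mothers on the normal diet. The labels name no transgene or deletion. The sort took lineage-negative cells with Thy1.2, CD25 and Nrp1 at their surface, and also with CD4 by the study's methods or CD45 by its legend. Nothing in the sources used here says whether replicates were single mice or pools, or whether IEL and LP libraries of the same number came from the same mice, so the p-values below measure only the spread between these libraries.

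MHC class I molecules show fragments of a cell's own proteins at its surface, where CD8+ T cells and natural killer cells read them. Peptides cut by the proteasome are carried into the endoplasmic reticulum by the TAP transporter, trimmed there by ERAP1, and loaded with the help of tapasin onto a heavy chain held by β2-microglobulin. Interferon-γ and the transactivator NLRC5 raise many of these genes together in leukocytes, and some non-classical class I molecules are made mainly by the intestinal epithelium.

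Of the 9 genes, 6 lie on chromosome 17 of GRCm38, the build that mm10 names, in the H2 region (GENCODE vM21 coordinates). These are Tapbp at 33915899-33929292, H2-K1 at 33996017-34000347, Tap1 at 34187553-34197225, Tap2 at 34203527-34216321, H2-D1 at 35262730-35267499 and H2-T3 at 36185572-36190287. B2m lies on chromosome 2 at 122147686-122153083, Nlrc5 on chromosome 8 at 94434356-94527272 and Erap1 on chromosome 13 at 74639568-74693201. RefSeq (GRCm38.p6) gave a promoter for 7 of the 9 genes, all but Tap2 and Nlrc5. The 250 bases before the RefSeq start are printed below for the light chain gene, both classical heavy chain genes, the non-classical H2-T3 and the transporter gene Tap1, because the first 3 are the most abundant of the 9 genes and H2-T3 is the one whose level differed most between layers. Capitals mark 3 motifs, searched on both strands: the core of the interferon-stimulated response element, read as GAAA, any 2 bases and GAAA; the κB-like GGGGANNCC; and TGACG, the core of a cyclic AMP response element. The windows are chr2:122147437-122147686 (+) for B2m, chr17:34000348-34000597 (-) for H2-K1, chr17:35262844-35263093 (+) for H2-D1, chr17:34187306-34187555 (+) for Tap1 and chr17:36190152-36190401 (-) for H2-T3. RefSeq and GENCODE place some starts differently: the window of H2-D1 lies inside its GENCODE gene and that of H2-T3 overlaps its GENCODE gene, so distances below are from the RefSeq start.
B2m: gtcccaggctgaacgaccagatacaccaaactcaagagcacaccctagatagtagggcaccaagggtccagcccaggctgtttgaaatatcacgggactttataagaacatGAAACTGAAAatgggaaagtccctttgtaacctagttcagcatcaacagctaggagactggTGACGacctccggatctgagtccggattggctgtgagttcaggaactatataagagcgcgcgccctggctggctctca
H2-K1: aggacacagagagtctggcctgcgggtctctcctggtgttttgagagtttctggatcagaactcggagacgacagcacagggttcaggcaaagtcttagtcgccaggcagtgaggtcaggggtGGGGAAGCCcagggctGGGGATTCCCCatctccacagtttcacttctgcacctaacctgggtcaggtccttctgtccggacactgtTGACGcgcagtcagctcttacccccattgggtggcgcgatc
H2-D1: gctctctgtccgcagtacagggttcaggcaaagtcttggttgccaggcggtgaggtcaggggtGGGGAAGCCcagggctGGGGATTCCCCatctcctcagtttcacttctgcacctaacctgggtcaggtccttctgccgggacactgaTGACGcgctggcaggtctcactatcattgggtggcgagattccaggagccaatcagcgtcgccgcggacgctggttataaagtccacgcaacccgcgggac
Tap1: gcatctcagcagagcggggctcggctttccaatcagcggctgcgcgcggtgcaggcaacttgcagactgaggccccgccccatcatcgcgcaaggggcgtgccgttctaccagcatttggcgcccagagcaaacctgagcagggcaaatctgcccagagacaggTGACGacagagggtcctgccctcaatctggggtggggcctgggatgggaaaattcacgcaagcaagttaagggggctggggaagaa
H2-T3: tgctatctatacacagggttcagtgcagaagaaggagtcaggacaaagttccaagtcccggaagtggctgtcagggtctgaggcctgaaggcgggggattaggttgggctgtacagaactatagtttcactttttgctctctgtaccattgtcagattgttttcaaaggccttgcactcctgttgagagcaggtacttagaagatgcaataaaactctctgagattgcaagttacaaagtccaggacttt

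B2m held the interferon-stimulated core, its first base 139 bases before the start, and TGACG 78 bases before it. H2-K1 and H2-D1 each held 3 matches of GGGGANNCC, of which the last 2 overlap on opposite strands, and 1 of TGACG. These matches lay 127, 111, 109 and 41 bases before the start of H2-K1 and 187, 171, 169 and 101 bases before that of H2-D1, the same spacing shifted by 60 bases. With that shift and no gaps, 166 of 190 bases of both windows were the same (87.4%). Tap1 held TGACG 86 bases before its start, and the windows of H2-T3, Tapbp and Erap1 held none of the 3 motifs. Over all 32851 promoters of the same length, 2.98% held the interferon-stimulated core, 5.33% held GGGGANNCC and 17.8% held TGACG. A match describes the letters only, and the absence of one says nothing about binding of a factor. The search took these strings as written, so variant forms of an element were not counted, in the heavy chain windows or elsewhere.

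Depth and make-up of the libraries bear on each level. Reads worked back from the tables came to between 8.81 M and 14.5 M per library. The number of genes at 1 FPKM or more ran from 4390 to 11378, and was lowest in PA IEL replicate 2 (4390) and PA LP replicate 2 (5637). The ILC3 label was borne out unevenly: Id2 was at 95.2 FPKM or more in every library, but Thy1, whose product was used in the sort, was at 0 in 5 of 12. The sort markers Cd4, Il2ra (encoding CD25) and Nrp1 were at 0 in 1 library each. They were under 1 FPKM in 1, 4 and 2 libraries. Of 13 markers of the sorted ILC3s, 2 to 13 reached 1 FPKM in a library. Together these took 0.0455% to 0.279% of the summed FPKM in PA IEL, 0.0318% to 0.0772% in ND IEL, 0.0213% to 0.0525% in PA LP and 0.0826% to 0.745% in ND LP. RNA that marks other cells was present. Krt8, an epithelial keratin, was at 121 FPKM or more in every library, Lyz2 of myeloid cells at 82.3 or more, and Cd3e of T cells was at 0 in 5 libraries and reached 87.5 in another. Other markers of these lists varied. In the myeloid list Fcer1g, Cd68 and Flt3 were above 1 FPKM in every library, but Xcr1 was under 1 FPKM in 9, Itgam in 8 and Csf1r in 5. In the epithelial list Cldn7 and Lgals4 were above 1 FPKM in every library, but Sis and Cdx2 were under it in 4 each and Cdh17 and Alpi in 3 each. Summed over their lists, T cell markers took up to 0.0617% of the FPKM, B and plasma cell markers 0.00275% to 3.0%, and myeloid and dendritic cell markers 0.0608% to 1.43%. In bulk RNA fewer cells of a type and less RNA per cell cannot be told apart, and the part of these other cells in the levels below was not tested.

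All 9 genes passed the filter (at least 1 FPKM in at least 3 libraries) among 12502 genes. By median level, the order was B2m (3796 FPKM), H2-D1 (2707), H2-K1 (1145), Tapbp (161), Tap2 (101), Tap1 (66.2), Erap1 (17.4), H2-T3 (10.7) and Nlrc5 (0.985). H2-D1 lay above H2-K1, and H2-K1 above Tapbp, in 12 of 12 libraries. B2m lay above H2-D1 in 11 of 12. Tapbp was above Tap2 in 10, Tap2 above Tap1 in only 5, Erap1 above H2-T3 in 6 and H2-T3 above Nlrc5 in 8, so these neighbours were not separated by their spread. B2m ranked between 4 and 36 among all genes of a library, H2-D1 between 9 and 71 and H2-K1 between 24 and 142. Over all libraries the highest value was 4.50 times the lowest for B2m, 3.68 times for H2-D1 and 3.13 times for H2-K1.

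**Figure D1:**
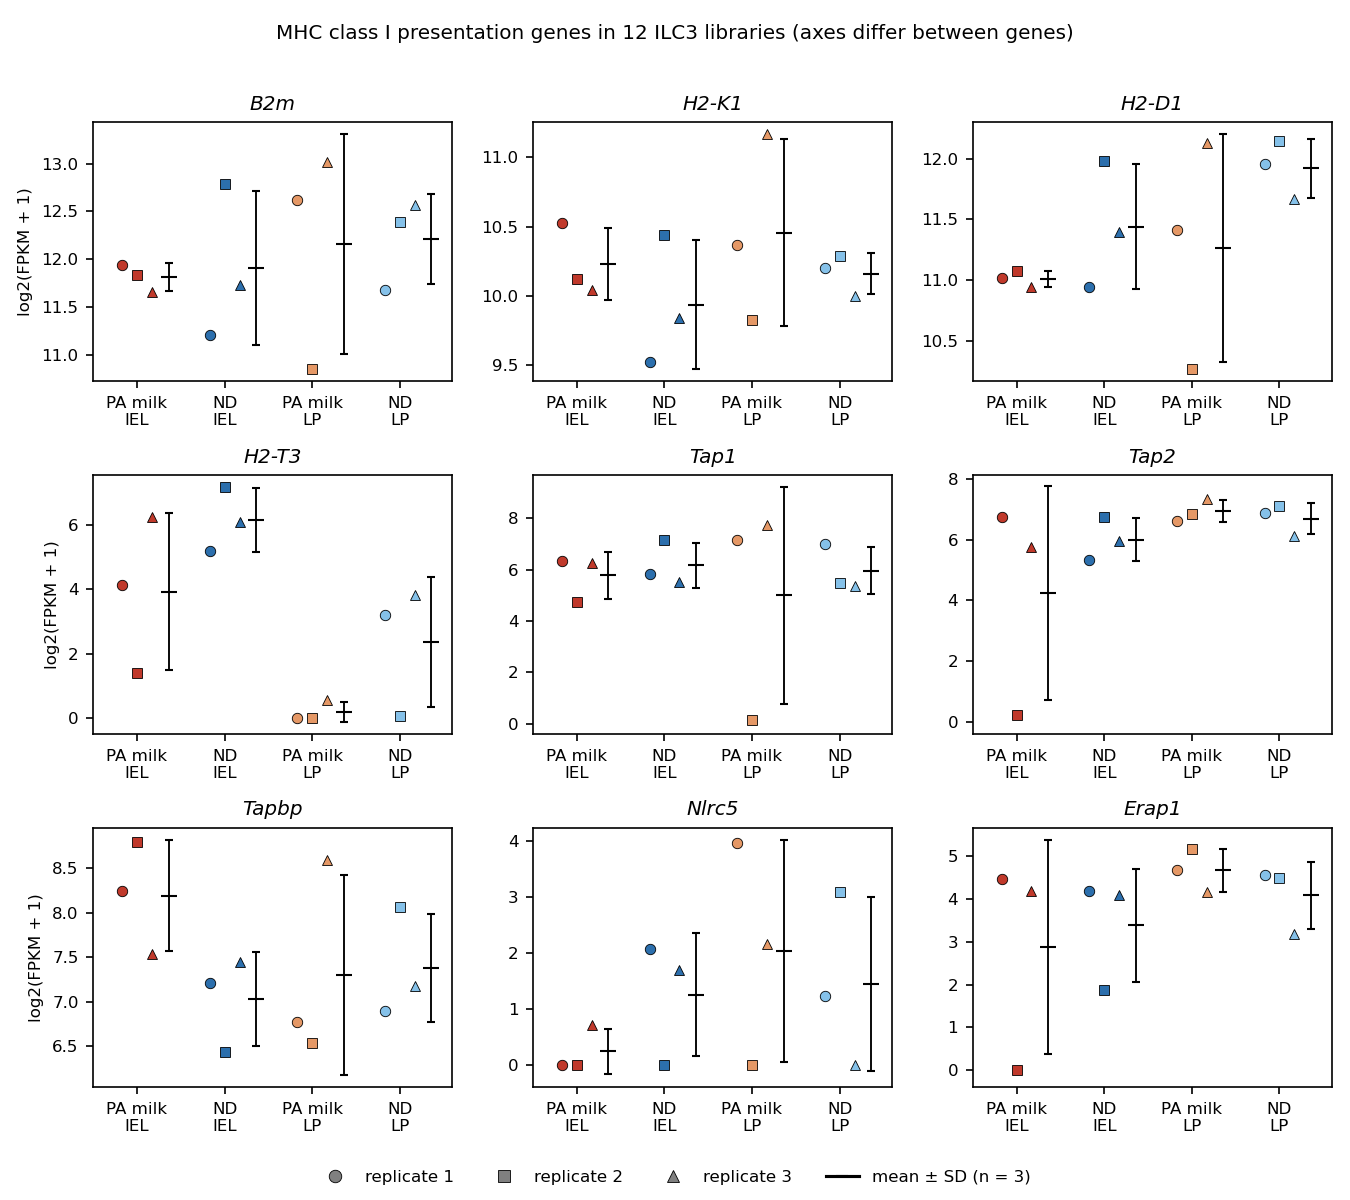
Level of each of the 9 class I genes, log2(FPKM + 1) on the y axis, in the 4 groups on the x axis, with 1 point per library, its shape giving the replicate number, and the mean ± SD (n = 3) beside it. The y axes differ and some do not start at 0: B2m, H2-K1 and H2-D1 are at 9.52 or more in every library, while Tap1, Tap2 and Erap1 each have 1 replicate 2 library near 0.

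B2m, the light chain shared by all class I molecules, was at 3934, 3659 and 3226 FPKM in PA IEL (replicates 1, 2 and 3), against 2359.6, 7047 and 3389.8 for ND IEL. Levels in PA LP were 6281, 1839.9 and 8272 and in ND LP 3261, 5374 and 6056. All 3 PA IEL libraries lay within the range of ND IEL, and PA LP held both the highest and the lowest library of all 12. The limma log2 fold change on log2(FPKM + 1), PA milk minus ND, was -0.09 ± 0.45 (SE, n = 3 and 3) in IEL and -0.05 ± 0.45 in LP, with an adjusted p of 1 in both layers. The sign turned when 1 library was left out: leaving out ND IEL replicate 2 gave 0.35 in IEL, and in LP leaving out PA LP replicate 2 gave 0.61, ND LP replicate 2 gave 0.041 and ND LP replicate 3 gave 0.13.

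H2-K1, a classical heavy chain that presents peptides to CD8+ T cells, was at 1477, 1114 and 1054 FPKM in PA IEL, against 736, 1390.1 and 919 for ND IEL. PA LP stood at 1323, 907 and 2303, ND LP at 1175, 1247 and 1022. Groups overlapped in both layers. Limma put the log2 fold change at 0.29 ± 0.33 in IEL (adjusted p = 0.955) and 0.29 ± 0.33 in LP (adjusted p = 0.979), although scaling on genes common to leukocytes gave -0.13 in IEL and leaving out PA LP replicate 3 gave -0.06 in LP.

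H2-D1, the other classical heavy chain listed, was at 2066, 2148 and 1959.9 FPKM in PA IEL, against 1969.8, 4035 and 2695 for ND IEL. PA LP libraries had 2719, 1228 and 4463 and ND LP libraries 3973, 4525 and 3242. In each layer the PA milk and ND libraries overlapped, though the ND mean was higher. By limma, the log2 fold change was -0.43 ± 0.35 in IEL (adjusted p = 0.947) and -0.66 ± 0.35 in LP (adjusted p = 0.979). Averaged over both layers it was -0.54 ± 0.25, with an unadjusted p of 0.0449 in limma's fit and an adjusted p of 0.805. Without PA LP replicate 2, a sparse library, the value in LP was -0.15 and the average -0.29, and without PA LP replicate 3 the value in LP was -1.08. In IEL the values without ND libraries 2 and 1 in turn were -0.16 and -0.68.

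The ratio of both heavy chains parted the libraries by milk diet, which neither level did alone. H2-K1 divided by H2-D1 was 0.715, 0.519 and 0.538 in PA IEL, against 0.373, 0.345 and 0.341 for ND IEL. PA LP libraries had ratios of 0.487, 0.738 and 0.516 and ND LP libraries of 0.296, 0.276 and 0.315. All 6 PA milk libraries, from 0.487 to 0.738, lay above all 6 ND libraries, from 0.276 to 0.373. Without both sparse libraries (PA IEL and PA LP replicates 2) the range in PA milk was 0.487 to 0.715. The mean ratio was 0.590 ± 0.108 (SD, n = 3) in PA IEL against 0.353 ± 0.0178 in ND IEL, which is 1.67 times as high, and 0.580 ± 0.138 in PA LP against 0.296 ± 0.0198 in ND LP, 1.96 times as high. The ratio was picked out after its values were seen, so no test is given. It is free of library scaling and rests on at least 14244 reads of H2-K1 and 20498.4 reads of H2-D1 in every library, but amplified cDNA reads without molecular tags are not independent molecules. It was 1 of 36 pairs of the 9 genes for which no PA milk library overlapped an ND library. Of all pairs among the 228 genes at 200 FPKM or more in every library, 22 of 25878 (0.085%) parted the diets in that way, and among the 60 genes at 500 FPKM or more, 2 of 1770 (0.113%). Only 3 of the 9 genes, B2m, H2-K1 and H2-D1, are in either set. These shares are over pairs not picked by their values, so they do not gauge a ratio that was.

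Ratios to the light chain did not part the diets. H2-K1 over B2m was 0.211 to 0.493 in the 6 PA milk libraries and 0.169 to 0.360 in the 6 ND libraries. H2-D1 over B2m was 0.433 to 0.668 in PA milk and 0.535 to 1.22 in ND. Both heavy chain genes have near copies: 8.79% of the 50-base words in the longest coding transcript of H2-K1 occur in another gene, most of them in H2-D1 (6.94%), and for H2-D1 the share is 14.3%, most of it with H2-Q1 (7.40%). Reads of these stretches can be assigned to either gene. The H2 haplotype of HR-1 is not given in the sources used here and the reads were mapped to the reference genome, so heavy chain levels and their ratio carry that uncertainty too. For B2m, Nlrc5 and Erap1 the shared percentage was 0, and for Tap1, Tap2, Tapbp and H2-T3 it was between 0.737% and 2.0%.

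**Figure D2:**
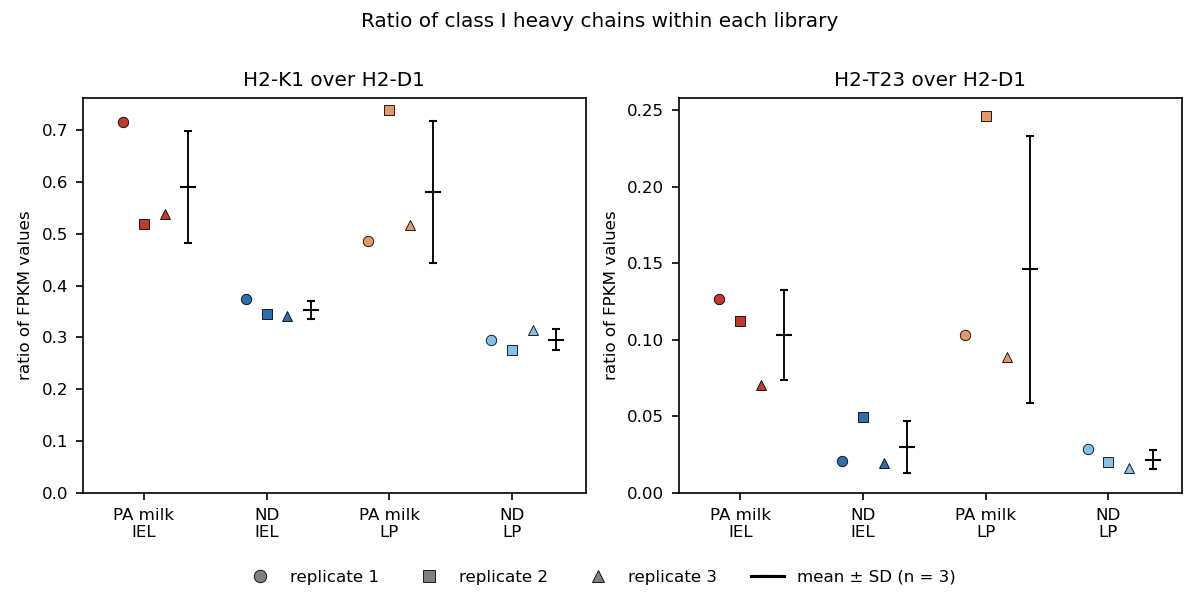
FPKM of H2-K1 (left) and of H2-T23 (right) divided by that of H2-D1 in the same library, on y axes that start at 0, with 1 point per library in the 4 groups and the mean ± SD (n = 3) beside them. The 6 PA milk libraries lie above the 6 ND libraries in both panels, from 0.487 against at most 0.373 on the left and from 0.0705 against at most 0.0498 on the right.

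Tap1 encodes one chain of the peptide transporter. It was at 80.5, 25.4 and 76.2 FPKM in PA IEL, against 56.2, 140.2 and 44.5 for ND IEL, with 139.5, 0.103 and 213 in PA LP against 127, 43.3 and 40.5 in ND LP. PA LP replicates 1 and 3 were above all 3 ND LP libraries, and replicate 2, with 3.1 reads, was below every other library. The limma log2 fold change was -0.38 ± 1.48 in IEL and -0.94 ± 1.48 in LP (adjusted p = 0.979), and in LP it became 1.49 without replicate 2 of PA LP. In IEL it became 0.15 without PA IEL replicate 2 and 0.11 without ND IEL replicate 2.

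Tap2, the partner chain, was at 105, 0.159 and 53.1 FPKM in PA IEL, against 38.9, 106 and 60.4 for ND IEL, with 97.4, 114 and 161 in PA LP against 115, 137 and 67.9 in ND LP. Here the low library was PA IEL replicate 2, with 5 reads, in which Tap1 was at 25.4 FPKM. PA LP replicate 2, in which Tap1 was nearly absent, had Tap2 at 114. The low values of both chains fell in different libraries, and their rank correlation over 12 libraries was 0.378, as a description. The limma log2 fold change of Tap2 was -1.77 ± 1.24 in IEL (adjusted p = 0.947), 0.24 without PA IEL replicate 2, and 0.24 ± 1.24 in LP.

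Tapbp encodes tapasin, which bridges the transporter and the heavy chain. It was at 304, 443 and 185 FPKM in PA IEL, against 148, 85.7 and 173 for ND IEL, so that PA IEL lay above ND IEL without overlap, by 185 against 173 at the closest. Levels in PA LP were 109, 91.7 and 384 and in ND LP 119, 267 and 144, and the groups overlapped. The mean in IEL was 311 ± 129 in PA milk and 136 ± 45.0 in ND (SD, n = 3), a limma log2 fold change of 1.16 ± 0.64 with an adjusted p of 0.947. The two-sided exact permutation test gave p = 0.1, the smallest that 3 libraries against 3 allow. Tapbp was the 1 gene of 9 whose groups did not overlap in IEL, which happened for 8.19% of all genes tested in either direction and for 2.97% in the direction of PA milk. In LP this happened for 0 of 9 and for 9.57% of all genes. The difference of the diet effect between layers, LP minus IEL, was -1.25 ± 0.90 for Tapbp (limma, adjusted p = 1.0).

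Erap1, the peptidase that trims peptides in the endoplasmic reticulum, was at 21.2, 0 and 17.4 FPKM in PA IEL, against 17.4, 2.64 and 16.2 for ND IEL. PA LP stood at 24.7, 35.2 and 16.9, ND LP at 22.7, 21.6 and 8.12. It was listed at 0 in PA IEL replicate 2, where 3 reads would have been 0.0576 FPKM, and was low in ND IEL replicate 2. On log2(FPKM + 1), limma gave a fold change of -0.50 ± 1.28 in IEL, which became 0.95 without that PA library, and 0.59 ± 1.28 in LP.

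Nlrc5, the transactivator of class I genes, was the lowest of the 9. It was at 0, 0 and 0.632 FPKM in PA IEL, at 3.16, 0 and 2.23 in ND IEL, at 14.5, 0 and 3.45 in PA LP, against 1.34, 7.51 and 0 for ND LP. It was thus listed at 0 in 5 of 12 libraries, among them both PA milk libraries with the fewest genes, PA IEL replicate 1 and an ND library of each layer. Limma put the log2 fold change at -1.01 ± 1.08 in IEL (adjusted p = 0.953) and 0.60 ± 1.08 in LP (adjusted p = 0.980). The sign in LP turned without PA LP replicate 1, the highest library (-0.36), and without ND LP replicate 3 (-0.12).

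Over the 9 genes, limma at an adjusted p under 0.05 called 0 in IEL, 0 in LP, 0 for the diet effect averaged over both layers and 0 for its difference between layers, and over all 12502 genes it also called none (0%) in each of these. Unadjusted p-values under 0.05 were reached by 447 genes in IEL, 588 in LP, 753 on average and 292 for the difference. Among them on average were 2 of the 9 genes, H2-D1 and H2-T3, both lower in PA milk, where 5.41% of all genes were lower at that p. In IEL, 2 of the 9 were higher in PA milk and 7 lower, with a median log2 fold change of -0.43 beside -0.30 over all genes. In LP, 4 were higher and 5 lower, with a median of -0.05 beside -0.36 over all genes.

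**Figure D3:**
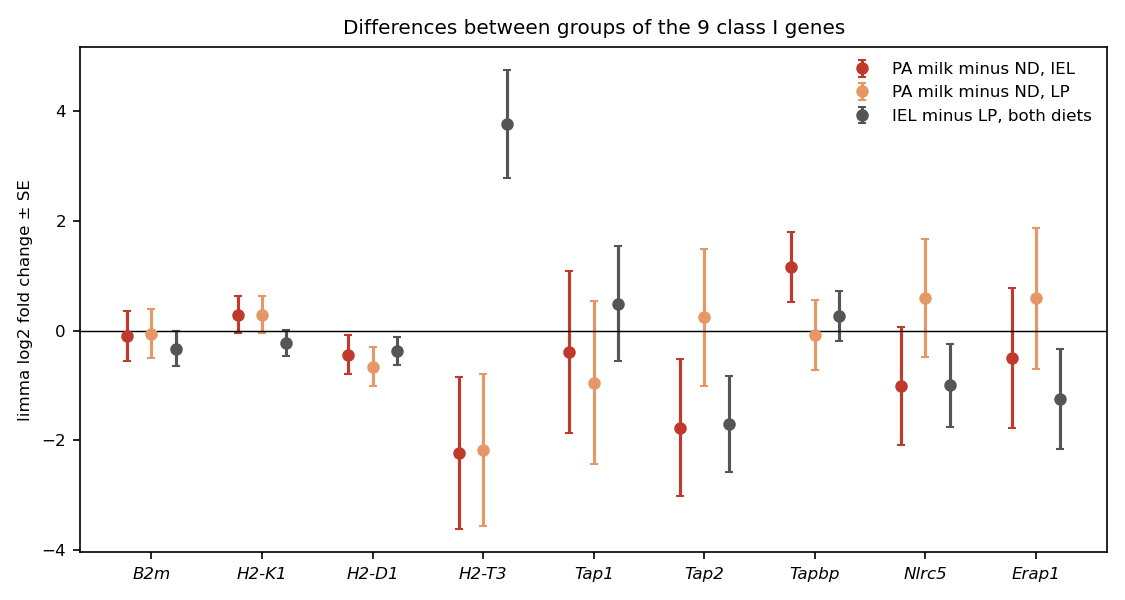
Limma log2 fold change ± SE of the 9 genes (x axis) for PA milk minus ND in IEL, PA milk minus ND in LP, and IEL minus LP averaged over both diets (y axis, difference of log2(FPKM + 1)). B2m, H2-K1 and H2-D1 lie between -0.66 and 0.29, with bars shorter than those of the genes with lower levels, and H2-T3 has the highest value, 3.77 for IEL minus LP.

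H2-T3 had the largest difference between layers of the 9 genes. It encodes the thymus leukaemia antigen, a non-classical class I molecule known from intestinal epithelial cells, which binds CD8αα. It was at 16.5, 1.63 and 75.5 FPKM in PA IEL, against 35.8, 144 and 67.0 for ND IEL. PA LP libraries had 0, 0 and 0.464 and ND LP libraries 8.16, 0.0400 and 13.2, where 0.0400 stands for 1 read. IEL lay above LP without overlap within each diet, which happened for 1 of the 9 genes in each. Over all genes tested, 19.3% did not overlap between layers in ND and 8.57% in PA milk, in either direction. The limma log2 fold change of IEL minus LP was 3.80 ± 1.39 in ND (adjusted p = 0.517), 3.74 ± 1.39 in PA milk (adjusted p = 0.406) and 3.77 ± 0.98 averaged over both (adjusted p = 0.0793, with an unadjusted p of 0.00151). It therefore missed the threshold, and it passed when PA IEL replicate 2 was left out (4.40, adjusted p = 0.0218) and when PA LP replicate 2 was left out as well (4.36, adjusted p = 0.0110).

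Between diets, the limma log2 fold change of H2-T3, PA milk minus ND, was -2.23 ± 1.39 in IEL, -2.18 ± 1.39 in LP and -2.20 ± 0.98 on average (adjusted p = 0.805, with an unadjusted p of 0.0400). Libraries of both diets overlapped in each layer. Leaving out 1 library moved the value in IEL to -0.96 (without PA IEL replicate 2) or -3.40 (without PA IEL replicate 3), and that in LP to -1.44 (without ND LP replicate 3) or -3.33 (without ND LP replicate 2). The averaged tests treat IEL and LP libraries as separate, and would rest on fewer independent samples if they shared mice.

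Epithelial markers moved with H2-T3. The 20 markers of the list took 0.646% to 6.89% of the summed FPKM in PA IEL and 3.47% to 10.6% in ND IEL, against 0.0626% to 0.264% in PA LP and 0.410% to 0.899% in ND LP. Between 11 and 20 of them were at 1 FPKM or more in IEL libraries and between 15 and 20 in LP libraries, and the enterocyte genes Fabp1, Fabp2 and Apoa1 were above 0 in every library. Krt18, Sis and Cdx1 were at 0 in 1 library each and Cdx2 in 3. ND IEL replicate 2, with the highest share (10.6%), also had the highest H2-T3, and the lowest shares, all in PA LP, went with 0, 0 and 0.464 FPKM. ND LP replicate 2 was an exception, with a share of 0.736% and H2-T3 at 0.0400. The part of epithelial RNA in the level of H2-T3 was not tested. The levels of H2-D1 showed no such order with the markers.

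**Figure D4:**
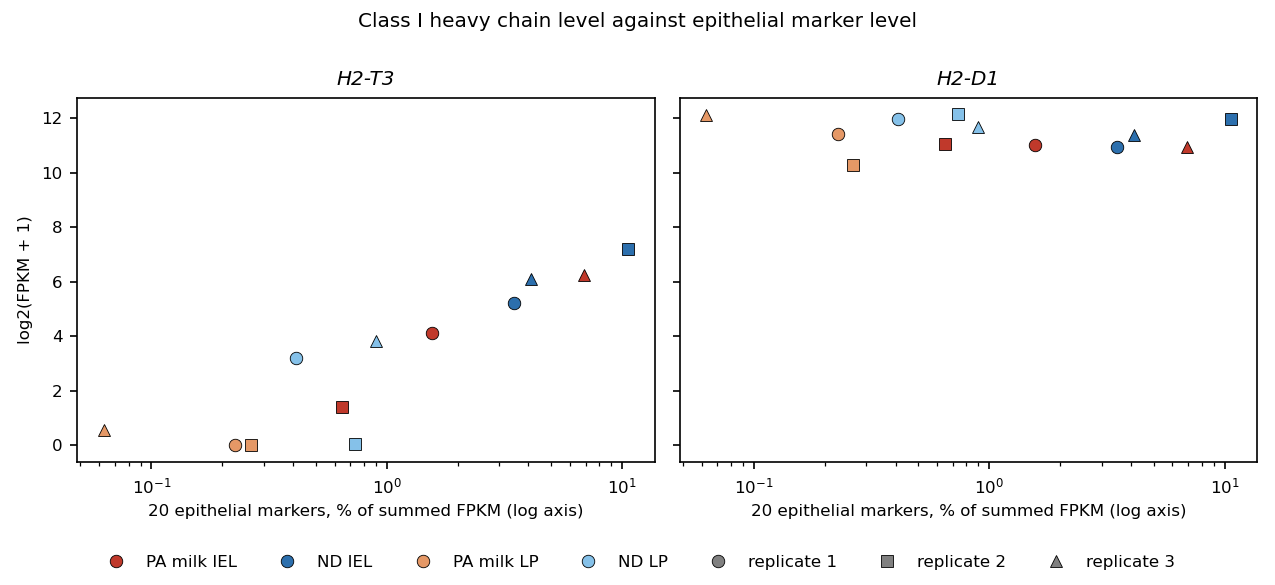
Log2(FPKM + 1) of H2-T3 (left) and H2-D1 (right) on a shared y axis against the share of summed FPKM taken by 20 epithelial markers (x axis, log scale), with 1 point per library, its colour giving the group and its shape the replicate. In the 5 libraries whose share is 1.56% or more H2-T3 is at 16.5 FPKM or more, in the other 7 it is at 13.2 or less, and H2-D1 stays at 1228 FPKM or more at every share.

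For the other 8 genes, IEL minus LP averaged over both diets lay between -1.70 and 0.49 on the log2 scale, and none of the 9 genes was called by limma among 110 genes (0.88% of those tested). In ND alone 4 genes (0.032%) and in PA milk alone 18 genes (0.144%) were called, again with none of the 9. Tap2 was lower in IEL than in LP by a log2 fold change of -2.70 ± 1.24 within PA milk (limma, adjusted p = 0.457, with an unadjusted p of 0.0455). Its groups overlapped because PA IEL replicate 1 was at 105. Without PA IEL replicate 2, where Tap2 had 5 reads, the value within PA milk was -0.69, and that averaged over both diets went from -1.70 to -0.69. At an unadjusted p under 0.05 H2-T3 was the only one of the 9 higher in IEL on average, as were 6.1% of all genes.

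Levels of B2m, H2-K1 and H2-D1 ranked the 12 libraries in part alike. Spearman's rho was 0.783 for B2m with H2-K1, 0.769 for B2m with H2-D1, 0.713 for H2-K1 with Tap1, 0.608 for H2-D1 with Tap2 and 0.601 for H2-K1 with H2-D1. Over all 36 pairs the median was 0.170, with 7 pairs over 0.5 and 13 under 0. These are descriptions, since the points share the libraries with their depth and cell make-up. Over 12502 genes, those most alike in pattern were H2-Bl (rho 0.984), Cyp3a11 (0.966) and Pla2g12b (0.945) for H2-T3, and St3gal4 (0.937), Ccnd3 (0.930) and Foxo1 (0.902) for H2-D1. For H2-K1 they were Sav1 (0.853), Rab8b (0.846) and H2-Q8 (0.839), and for B2m D830031N03Rik (0.914), Sfxn3 (0.909) and Filip1l (0.881). Leading genes for the rest were Trp53i13 for Tap1 (0.949), Tmem109 for Tap2 (0.916), Dctn3 for Tapbp (0.930), Meis2 for Nlrc5 (0.964) and, tied, Ahsa2, Rbfa and Orc3 for Erap1 (0.958).

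The wider pathway was read from 8 lists. Of 22 other class I heavy chain genes, 20 were in the table and 16 passed the filter. H2-Q1 and H2-Q2, non-classical heavy chain genes, were the only ones called, both higher in IEL. H2-Q1 was at 4.39, 101 and 235 FPKM in PA IEL, against 45.9, 418 and 97.4 for ND IEL, and between 0 and 5.14 in LP libraries. H2-Q2 was at 20.9, 113 and 362 in PA IEL, against 83.1, 608 and 155 for ND IEL, and between 0 and 25.2 in LP. In H2-Q1, 22.9% of the 50-base words occur in other genes, the largest part in H2-Q2 (13.9%). In H2-Q2, 8.74% do, the largest part in H2-Q1. Reads of these stretches can be assigned to either gene, so both levels are uncertain and the calls may not be independent. The limma log2 fold change of IEL minus LP averaged over both diets was 5.19 ± 0.96 for H2-Q1 and 4.43 ± 0.82 for H2-Q2 (adjusted p = 0.0186 for both). Direction held under all 18 alternatives run, but limma's adjusted p reached 0.05 or more under 5 of them for H2-Q1 and 6 for H2-Q2. For both genes these included leaving out PA IEL replicate 3 (0.0570 and 0.0568), ND IEL replicate 2 (0.0803 for both) or ND IEL replicate 3 (0.0596 and 0.0572), and testing without the filter (0.0703 and 0.0651). The call of H2-Q1 was lost as well without ND LP replicate 2 (0.0563), and that of H2-Q2 without ND LP replicate 3 (0.0552) or with a pseudocount of 0.1 (0.0528). For H2-Bl, annotated as a polymorphic pseudogene, it was 3.86 ± 0.97 (adjusted p = 0.0700). The share of epithelial markers given above was also mostly higher in IEL than in LP. PA IEL replicate 2, with the lowest share in IEL (0.646%), had H2-Q1 at 101 and H2-Q2 at 113. PA IEL replicate 1, with a share of 1.56%, had them at 4.39 and 20.9. H2-Bl was lower in replicate 2 (2.89) than in replicate 1 (26.0), as was H2-T3. The part of epithelial RNA in the levels of these 3 genes was not tested.

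H2-T23 encodes Qa-1, which shows leader peptides of other class I molecules to natural killer receptors. It was at 262, 241 and 138 FPKM in PA IEL, against 41.2, 201 and 52.8 for ND IEL, with 281, 303 and 396 in PA LP against 115, 92.0 and 52.9 in ND LP. PA LP lay above ND LP without overlap, and in IEL 1 ND library reached into the range of PA milk. The limma log2 fold change was 1.42 ± 0.65 in IEL (adjusted p = 0.947), 1.96 ± 0.65 in LP (adjusted p = 0.979) and 1.69 ± 0.46 on average (adjusted p = 0.624, with an unadjusted p of 0.00216). H2-T23 over H2-D1, a ratio chosen after its values were seen, was 0.0705 to 0.246 in the 6 PA milk libraries and 0.0163 to 0.0498 in the 6 ND libraries. Of all pairs among the 877 genes at 40 FPKM or more in every library, 0.139% parted the diets. That share is over pairs not picked by their values, so it does not gauge this ratio. Of the 50-base words of H2-T23, 28.8% are shared with other genes, so its level is uncertain.

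H2-Q6 and H2-Q7 encode Qa-2 antigens, and 32.0% and 34.9% of their 50-base words occur in other genes. The largest part was with each other, 13.9% of the words of H2-Q6 and 19.3% of those of H2-Q7. H2-Q6 was at 159, 75.8 and 58.3 FPKM in PA IEL, against 29.2, 21.2 and 22.8 for ND IEL, with no overlap, and at 237, 0.118 and 240.3 in PA LP against 109.6, 117 and 64.0 in ND LP. In limma's fit the log2 fold change was 1.84 ± 1.49 in IEL and -1.24 ± 1.49 in LP, neither called. Over the list of 16, limma called 0 for diet in either layer. In IEL 6 were higher and 10 lower in PA milk, with a median log2 fold change of -0.28 (-0.30 over all genes), and in LP 5 were higher and 11 lower, with a median of -1.13 (-0.36 over all genes). In the sparse PA LP replicate 2, H2-Q1, H2-Q2, H2-Q10, H2-T9 and H2-Bl were at 0, H2-Q6 at 0.118 and H2-Q8 at 0.0935. In PA LP replicates 1 and 3, H2-T23, H2-Q6, H2-Q7, H2-Q8, H2-Q9 and H2-T9 lay above every ND LP library. The genes named below as lower lay under every ND LP library there. That reading sets replicate 2 aside after its values were seen, and how often such a split occurs over all genes was not counted. With replicate 2 kept, H2-T23 alone of the genes that lay above still did so. The part of replicate 2 in the median was not tested. PA milk and ND did not overlap for 1 of the 16 in IEL, H2-Q6, beside 8.19% of all genes, and for 6 in LP, beside 9.57%. In LP H2-T23 was higher in PA milk, and H2-Q1, H2-Q2, H2-Q4, H2-Q10 and H2-Bl were lower. The share of epithelial markers given above was also lower in PA LP than in ND LP without overlap, and its part was not tested.

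**Figure D5:**
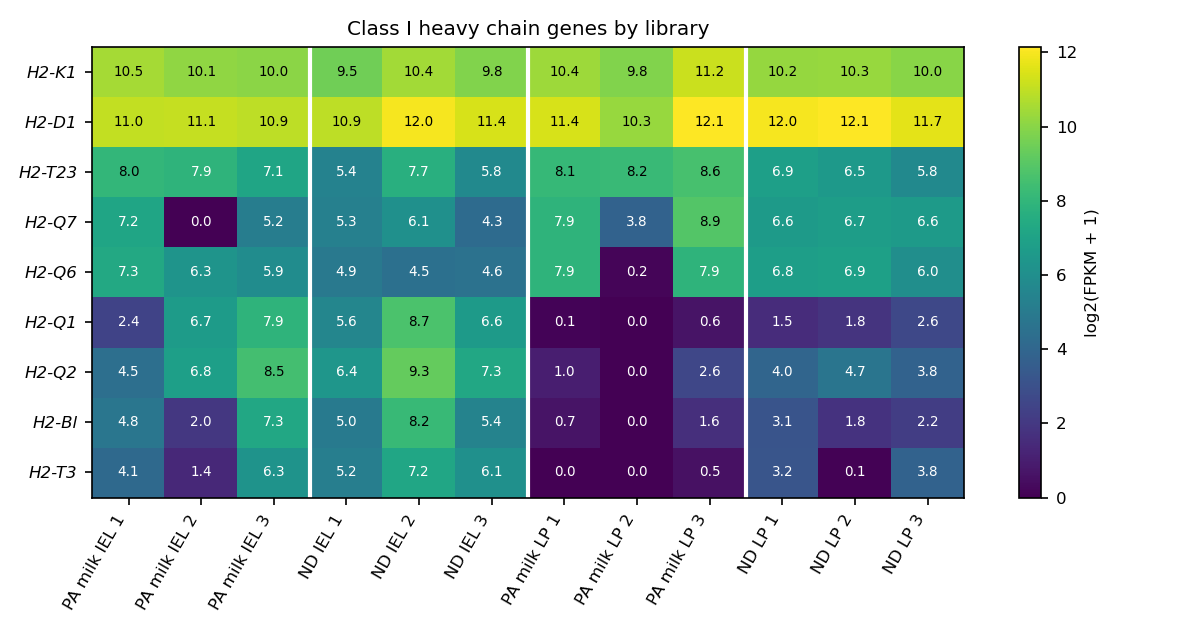
Level of 9 class I heavy chain genes, with log2(FPKM + 1) written in each cell and given by the colour scale, in the 12 libraries grouped by diet and layer. H2-K1 and H2-D1 are high throughout, H2-Q1, H2-Q2, H2-Bl and H2-T3 are high mainly in IEL libraries, and the 5 lowest values of H2-T23 are in ND libraries.

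No gene of the other 7 lists was called in any comparison. Over all genes the median log2 fold change, PA milk minus ND, was -0.30 in IEL and -0.36 in LP. Of all genes, 38.0% in IEL and 37.4% in LP were higher in PA milk. Of 10 genes for peptide loading and folding, all 10 were tested, 4 higher and 6 lower in PA milk in IEL (median -0.44) and 2 higher and 8 lower in LP (median -0.35). Calr, encoding calreticulin, was at 407, 194 and 404 FPKM in PA IEL against 433, 458 and 473 in ND IEL, and Pdia3, its oxidoreductase partner, at 156, 232 and 134 against 321, 235 and 236, both with no overlap. They were the 2 of 10 that did not overlap in IEL, beside 8.19% of all genes, and in LP Canx alone did not (9.57%). Hspa5, P4hb and Hsp90b1, chaperones and an isomerase that with these make up the 5 most abundant of the list, overlapped in IEL. For Calr and Pdia3 limma gave log2 fold changes of -0.52 ± 0.40 and -0.62 ± 0.45 (adjusted p = 0.947 for both).

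Of 6 genes of the immunoproteasome and its activator, which cut proteins into class I peptides under interferon-γ, 2 were higher and 4 lower in PA milk in IEL (median -0.19), and 3 were higher and 3 lower in LP (median 0.14). Psmb8, a catalytic subunit, was at 231 to 523 FPKM in PA IEL, 329 to 665 in ND IEL, 389 to 720.3 in PA LP and 375 to 421 in ND LP. Psme2, a subunit of the activator, was at 123, 112 and 597 in PA LP, against 685, 862 and 671 for ND LP, the 1 gene of 6 with no overlap there, beside 9.57% of all genes, and none of the 6 was apart in IEL. Its limma log2 fold change in LP was -1.86 ± 0.63 (adjusted p = 0.979).

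Of 15 transcription factors of class I genes, 5 were higher and 10 lower in PA milk in IEL (median -0.35) and 3 higher and 12 lower in LP (median -0.51). Irf1, an interferon-induced activator, was at 259.9, 106 and 84.8 FPKM in PA IEL, against 318, 608 and 316 for ND IEL, with no overlap, a limma log2 fold change of -1.56 ± 0.80 (adjusted p = 0.947). Levels in PA LP were 1174, 107 and 1576 and in ND LP 761, 942 and 341, where the groups overlapped. Irf1 and Nfkb1 were the 2 of 15 without overlap in IEL (8.19% of all genes) and Rfx5 the 1 in LP (9.57%), all lower in PA milk.

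Of 6 genes for interferon-γ and its signalling, 2 were higher and 4 lower in IEL and 1 higher and 5 lower in LP, with medians of -0.59 and -0.65. Ifngr1, which encodes the ligand-binding chain of the interferon-γ receptor, was at 51.7 FPKM or more in every library. Of 8 other peptidases, 3 were higher and 5 lower in IEL and 1 higher and 7 lower in LP, with medians of -0.79 and -1.04. Single genes of both lists were near 0 in the sparse PA IEL and PA LP replicates 2. Jak1 was at 0.0572 and 0.0895 FPKM there, Jak2 at 0.0307 and 0.0192 and Lap3 at 98.3 and 0.0886, but Thop1 at 204 and 48.7. The part of these 2 libraries in the medians was not tested. Of 11 class I-like genes in the table, 6 were tested, 3 higher and 2 lower in IEL, where Mill2 was listed at 0 throughout, and 3 higher and 3 lower in LP, with medians of 0.23 and -0.13. Of 12 receptors of class I molecules, 11 were in the table and 6 were tested, with 2 higher and 4 lower in IEL and 1 higher and 5 lower in LP (medians -0.99 and -0.70). T cell markers, a list that shares Cd8a and Cd8b1 with the receptors, had 7 of 8 lower in PA milk in each layer (medians -2.20 and -2.22, none called), and their part in the receptor levels was not tested. Lilrb4 and Cd8b1 had the highest means of the receptors, 30.5 and 25.8 FPKM. Klrd1, encoding CD94, which pairs with NKG2 chains to read Qa-1, was at 36.4, 0 and 13.9 FPKM in PA IEL, at 31.1, 27.1 and 39.0 in ND IEL, and between 0 and 6.59 in LP libraries.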

How the data were processed

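ILC3 RNA of 12 libraries, 3 in each of 4 groups taken from the labels, was amplified with the SMART-Seq v4 kit, without molecular tags. FPKM values for 23284 genes were made by the authors with Cufflinks 2.2.1 after alignment (mm10, TopHat 2.1.1, Bowtie 2.2.8.0, SAMtools 0.1.18) (the submitters' processing notes also list Cuffdiff 2.2.1). A second deposited table holds a scaled signal, in which each library's counts were divided by a factor of its own and rounded. It was used for depth alone: low values lay at steps of 0.680 to 1.08, of which 93.0% to 100% were within 0.05 of a whole multiple, and a step was taken as 1 read. A value of up to 3 reads was treated as a floor, for counting error only.

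Genes at 1 FPKM or more in at least 3 libraries (12502) were tested with limma 3.58.1 (R 4.3.3) on log2(FPKM + 1), with the prior variance following the mean, in 1 fit of 4 group means. P-values were adjusted over all genes tested by the Benjamini-Hochberg method, at a threshold of 0.05. Fold changes are on the log2(FPKM + 1) scale, which understates those of low genes. Single genes were also compared by a two-sided exact permutation test over 20 arrangements of 3 against 3 libraries, and non-overlap means that every library of a group lay above every library of the other. Other steps used pandas 2.3.3, numpy 2.4.6, scipy 1.17.1 and matplotlib 3.10.9 under Python 3.11.15. The fit was tested on simulated data.

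The 9 genes, the wider lists and the markers were chosen with earlier results of these data known. Of the wider lists, the rule named genes called by limma, and otherwise up to 5 with the highest mean FPKM. Which of these were described was chosen after their values were seen. So were H2-Bl, H2-Q4, H2-Q8, H2-Q9, H2-Q10, H2-T9, Canx, Rfx5, Nfkb1 and Mill2, which lie outside the rule. H2-L, H2-Q5, Pirb, Mzb1 and Adgre1 were not found under these symbols. A marker of the sorted cells is not reported here. Alternatives were other scalings, no filter, a pseudocount of 0.1, the replicate number as a block, only the 6 libraries of a layer, each library left out in turn, and PA IEL and PA LP replicates 2 left out together.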

Additional observations from a re-analysis of the deposited data

How the results depend on the processing

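None of the 9 genes was called for diet under any alternative run. For H2-T3 the difference between layers passed the threshold under the settings given in the report, and under no other. Of the values of the 9 genes in IEL, in LP and between layers averaged over both diets, 475 under alternatives kept direction and side of the threshold, 2 passed it and 27 changed sign, none of them called.

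Where leaving out 1 library changed a sign, the log2 fold changes ran as follows. In IEL, PA milk minus ND ran from -0.44 to 0.35 for B2m, from -0.71 to 0.15 for Tap1, from -3.01 to 0.24 for Tap2 and from -1.29 to 0.95 for Erap1. In LP it ran from -0.48 to 0.61 for B2m, from -0.062 to 0.61 for H2-K1, from -2.31 to 1.49 for Tap1, from -0.051 to 0.45 for Tap2, from -0.73 to 0.30 for Tapbp and from -0.36 to 1.62 for Nlrc5. IEL minus LP ran from -0.72 to 1.18 for Tap1. Among values printed in the report, signs held but sizes moved by over 1.5 times for H2-K1 (0.088 to 0.55), H2-D1 (-0.68 to -0.16), H2-T3 (-3.40 to -0.96) and Nlrc5 (-1.64 to -0.61) in IEL, for H2-D1 (-1.08 to -0.15), H2-T3 (-3.33 to -1.44) and Erap1 (0.14 to 0.84) in LP, and for Tap2 between layers (-2.32 to -0.69). In IEL the upper ends came without PA IEL replicate 2 for Tap1, Tap2 and Erap1 and without ND IEL replicate 2 for B2m, and in LP those of B2m, Tap1 and Tapbp came without PA LP replicate 2. Leaving out both sparse libraries (PA IEL and PA LP replicates 2) gave 0.61 for B2m, 1.49 for Tap1 and 0.30 for Tapbp in LP, 0.15 for Tap1, 0.24 for Tap2 and 0.95 for Erap1 in IEL, and between layers -0.46 for Tap1 and -0.068 for Tapbp. Scaling on genes common to leukocytes gave -0.13 for H2-K1 in IEL and 0.016 for B2m in LP. The causes were not tested, beyond the low values of single libraries.

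Over all genes, the count called in LP went from 0 to 3, and that averaged over layers from 0 to 2, with the replicate block, in which same-numbered libraries are paired. Same-numbered libraries did not deviate together (correlations from -0.123 to 0.116), and the block changed no call of the 9 genes. IEL minus LP in ND went from 4 to 0 without the filter, 1 with a pseudocount of 0.1 and 113 without the sparse libraries. In PA milk it went from 18 to 9 with scaling on leukocyte genes, 3 without the filter and 314 without the sparse libraries. On average it went from 110 to 62, 30 and 826 in the same order, and to 58 with a pseudocount of 0.1. Leaving out 1 library gave 0 to 1 in IEL, 0 to 8 in LP, 0 to 1 averaged over layers, 0 to 65 for layers in ND, 1 to 289 in PA milk and 37 to 521 averaged over diets.

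The planned edgeR test was not run, because whole reads were not recovered for nearly all genes, and limma-voom on the scaled signal, added after seeing the data, was set aside because its weights ran away for abundant genes. With 3 libraries a group, the diet fold changes of the 5 lowest genes carried SEs of 1.08 to 1.48 on the log2 scale. Differences of that size were not detectable, and larger ones could go uncalled as well. H2-T3 between layers, averaged over both diets, was not called at 3.77 ± 0.98 (limma, adjusted p = 0.0793).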

Other observations

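Among class I-like genes, Procr, which encodes the endothelial protein C receptor, was at 1278, 0.141 and 400.2 FPKM in PA LP and at 249.7, 353 and 30.0 in ND LP, against 0 to 7.89 in IEL libraries. PA LP replicate 2 was the only LP library in the range of IEL. Limma's log2 fold change of IEL minus LP averaged over both diets was -5.67 ± 1.41 with an adjusted p of 0.0671. Cd1d1, which presents lipids to natural killer T cells, was at 0, 0 and 2.80 in PA LP and at 19.5, 11.2 and 20.3 in ND LP. These groups did not overlap, as for 9.57% of all genes tested, and the limma log2 fold change was -3.48 ± 1.29 with an adjusted p of 0.979. Hfe was the only other of the 6 tested class I-like genes without overlap in LP, and it went the other way. It was at 46.8, 50.8 and 85.4 FPKM in PA LP and at 31.1, 20.8 and 6.74 in ND LP.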
